A study of Homo sapiens with 8 samples.

Results

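Cells driven into senescence by oncogenic RAS transcribed some genes less than control cells did, and for a subset of them the level was higher again when the m6A methyltransferase subunit METTL3 or METTL14 was knocked down in the senescent cells. The 197 genes with this shape are described here. They were chosen by their own measured values: summed counts of 100 or more over the 8 libraries, a mean in senescent shControl cells of at most 0.7 times the control mean, a mean after each knockdown of at least 1.4 times the senescent shControl mean, and both senescent shControl libraries below all 6 others. The scale was CPM, the counts of a gene per 1000000 counts, over genes outside ribosomal RNA. The rule was applied to 27924 genes, the 27945 of the table without 21 ribosomal RNA rows, of which 11063 reached the count minimum.

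The cells are IMR90, primary diploid human lung embryonic fibroblasts. Control cells are labelled WT and carry no listed shRNA, whereas the 3 senescent groups express an inducible fusion of the estrogen receptor with H-RASG12V (ER:RAS) and an shRNA: shControl, shMETTL3 or shMETTL14, with 1 shRNA per target by the study's methods. Each of the 4 groups has 2 libraries. By the study's methods 4-hydroxytamoxifen (4-OHT) induces the ER:RAS construct. Whether the control cells carry that construct or a control vector is not given in the sources used here. The labels set senescent shControl cells apart from control cells in both senescence and shRNA, so RAS, its inducer and the shRNA cannot be told apart, and 1 shRNA per target does not separate the knockdown from other effects of that shRNA. The assay was fastGRO-seq, which captures nascent RNA: nuclei extend RNA already under synthesis with a labelled nucleotide, and the labelled RNA is purified and sequenced. Reads were counted over whole gene bodies, introns included.

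METTL3 and METTL14 form the heterodimer that places N6-methyladenosine on RNA, METTL3 as the catalytic subunit and METTL14 as the partner that helps to hold the RNA. Both are also found on chromatin. In RAS-induced senescence, cells stop dividing, genes of the cell cycle are transcribed less and genes of the secretory phenotype are transcribed more.

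Between 86.2 and 92.5% of the counts of a library fell in ribosomal RNA rows, which left 1513930 to 2048475 counts for all other genes. The METTL3 counts were 77 and 47 in senescent shControl, and 16 and 19 after METTL3 knockdown (log2 fold change -2.04, SE 0.31, adjusted p = 1.8e-05, edgeR quasi-likelihood test, n = 2 libraries a group). METTL14 gave 24 and 28 counts in senescent shControl, and 18 and 14 after METTL14 knockdown (log2 fold change -0.86, SE 0.34, adjusted p = 0.076, same test). METTL14 was lower, as labelled, without passing the threshold, and its counts in senescent shControl were already below the 60 and 55 of control. These are counts of nascent RNA, so they do not measure how far either knockdown lowered mRNA or protein. For protein, the study refers to a western blot of the knockdown cells. Of 10 fibroblast markers, 9 had at least 100 summed counts, as did 3 of 5 smooth muscle markers, while 0 of 7 epithelial and 0 of 6 immune markers did. Of the endothelial markers, 2 of 6 reached 100 counts, and their defining genes PECAM1 and CDH5 had at most 3 counts over the 8 libraries. The summed fibroblast markers were lower in the senescent libraries (8349 to 15110 CPM) than in control (18110 and 19460 CPM), although the means of FN1 (6109 against 5515 CPM) and VIM (2447 against 1927 CPM) were higher in senescent shControl than in control. The summed endothelial markers were at 62.2 and 69.9 CPM in control and 33.7 to 46.2 in the senescent libraries, a sum in which the mean of TEK was 60.5 CPM in control and 12.2 after METTL14 knockdown, and that of TIE1 was 0 and 26.3. Smooth muscle markers were at 61.5 and 88.4 CPM after METTL3 knockdown, against 164 to 206 in all other libraries. Here too single markers differed, with means in control and senescent shControl of 53.1 and 111 CPM for SMTN and of 122 and 41.6 CPM for ACTG2. The part of these markers in the results below was not tested. In nuclei pooled from many cells, fewer transcribing cells and less transcription per cell cannot be told apart.

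The promoters of 4 members are shown because these members had the highest level per gene length in control cells (RPKM, CPM per kb of gene) among protein-coding members with a RefSeq promoter entry: C1orf122 (7.54 RPKM), FGF5 (4.48), HMGCS1 (4.195) and ZNF768 (2.88). Each line gives the 250 bases before the most upstream RefSeq start, 5′ to 3′ on the gene's strand, in GRCh38.p14, a different build from the count table (hg19). The windows are chr1:37807540-37807789 (plus strand), chr4:80266338-80266587 (plus), chr5:43313413-43313662 (minus) and chr16:30526567-30526816 (minus). Capitals mark matches to the searched motifs, on either strand.
C1orf122: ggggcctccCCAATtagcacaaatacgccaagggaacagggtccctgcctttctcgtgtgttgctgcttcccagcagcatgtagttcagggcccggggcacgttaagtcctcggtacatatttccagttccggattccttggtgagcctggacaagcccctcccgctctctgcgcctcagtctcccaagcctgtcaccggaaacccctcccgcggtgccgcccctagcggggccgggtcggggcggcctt
FGF5: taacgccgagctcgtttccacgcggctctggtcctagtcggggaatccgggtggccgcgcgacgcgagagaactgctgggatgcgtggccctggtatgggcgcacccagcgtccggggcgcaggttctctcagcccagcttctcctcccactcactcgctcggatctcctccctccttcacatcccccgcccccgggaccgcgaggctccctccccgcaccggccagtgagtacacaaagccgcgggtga
HMGCS1: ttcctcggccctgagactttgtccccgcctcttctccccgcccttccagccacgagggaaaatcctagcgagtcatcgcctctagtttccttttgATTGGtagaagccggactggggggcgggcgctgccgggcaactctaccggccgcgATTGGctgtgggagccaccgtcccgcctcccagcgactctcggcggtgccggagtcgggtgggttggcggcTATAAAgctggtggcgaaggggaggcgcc
ZNF768: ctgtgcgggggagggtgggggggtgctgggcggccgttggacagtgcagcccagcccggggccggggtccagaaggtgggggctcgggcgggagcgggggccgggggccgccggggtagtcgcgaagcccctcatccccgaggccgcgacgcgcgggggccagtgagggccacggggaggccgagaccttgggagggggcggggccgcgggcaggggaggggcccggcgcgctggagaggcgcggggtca

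HMGCS1, the enzyme of the mevalonate pathway that makes HMG-CoA, has a TATA box (TATAAA) whose first base lies at position -29 from the start and CCAAT boxes (CCAAT, here on the other strand) at -155 and -100. C1orf122 has a CCAAT box at -241, and the FGF5 and ZNF768 windows hold none of the motifs searched. A RefSeq promoter was found for 161 of the 197 members (81.7%). Over the full windows of 300 bases, with 50 bases after the start included and 1 window a gene, 69 of 161 members held a CCAAT box (42.9%), against 35.7% of the 27305 genes of the table and 37.0% of the 10357 tested genes with an entry. A TATA box was present in 15 member windows (9.32%, against 12.02% of all genes and 6.28% of tested genes). An AP-1 motif (TGANTCA) was present in 10 (6.21%, against 7.72 and 4.71%), a CRE (TGACGTCA) in 5 (3.11%, against 1.97 and 3.30%) and an E-box (CACGTG) in 16 (9.94%, against 7.41 and 9.89%), with all genes and then tested genes in each pair. The TEAD motif (GGAATG) was found in 22 member windows (13.7%, against 14.1 and 11.1%), the E2F motif (TTTNGCGC) in 2 (1.24%, against 1.81 and 2.92%) and NRF1 in 6 (3.73%, against 2.58 and 4.87%). NF-kappaB was found in 6 (3.73%, against 5.72 and 6.31%) and the SRF CArG box in 0 of 161 (against 1.29 and 1.14%). For TATA, AP-1, TEAD, CRE and NRF1 the member share lay above 1 of these backgrounds and below the other. A CArG box can hold the letters of a TATA or CCAAT box, and an NF-kappaB match those of the TEAD motif. These are counts of letters and were not tested.

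**Figure D1:**
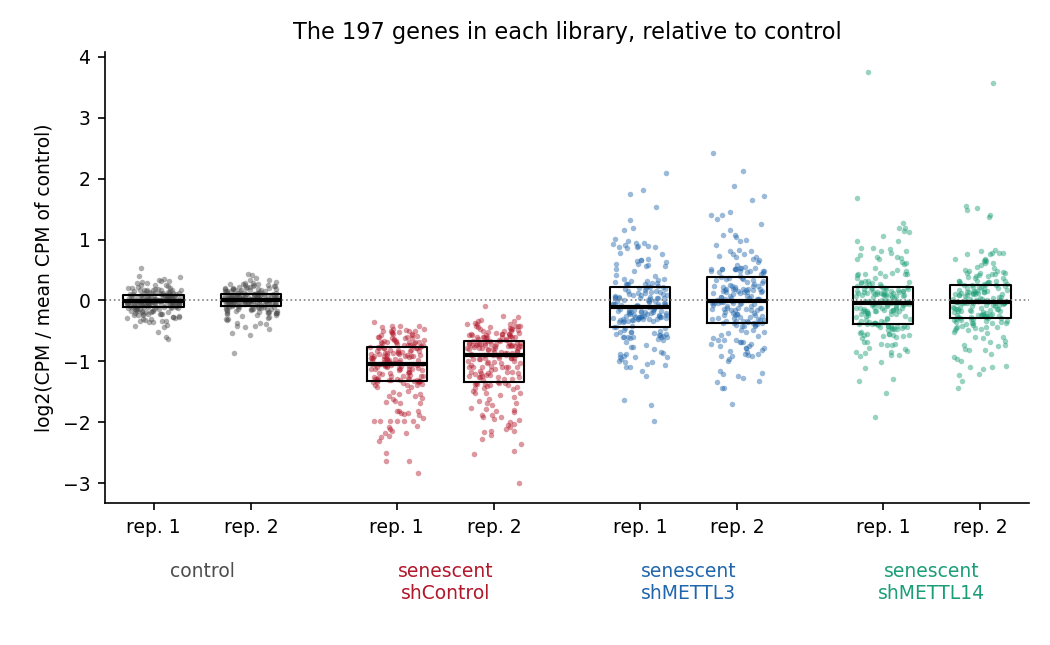
Each point is 1 of the 197 members in 1 library, as log2 of its CPM over its mean CPM in control, with boxes from the lower to the upper quartile and a line at the median. The senescent shControl medians lie at -1.04 and -0.90, and those of the 4 knockdown libraries between -0.11 and -0.01. The control points are centred on their own mean, so their spread is not comparable with that of the other groups.

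The 197 members took 1.34 and 1.37% of the counts outside ribosomal RNA in the control libraries, 0.621 and 0.693% in senescent shControl, 1.33 and 1.44% after METTL3 knockdown, and 1.21 and 1.24% after METTL14 knockdown. These shares follow from the rule that selected the genes. Per member, the knockdown mean regained a median of 95.6% of the senescent fall after METTL3 knockdown (quartiles 58.0 and 149.8%) and 95.1% after METTL14 knockdown (quartiles 66.8 and 138.6%), where 100% is the control mean. These shares, and the counts of means that follow, are a description, since they are built from the means that the rule used, and the rule sets a floor under each member's share. After both knockdowns 55 members had means at or above control, 64 stayed below control after both, 40 were at or above it after METTL3 knockdown alone, and 38 after METTL14 knockdown alone. With library sizes scaled by trimmed means (TMM) in place of the library sum, the median regained after METTL3 knockdown was 132.3%, since that scaling sets the shMETTL3 libraries higher.

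The rule asks for ratios and not for a test. All 197 members were among the 12844 genes tested. In the contrasts that the rule used, 109 members were called lower in senescent shControl than in control (adjusted p below 0.05, edgeR quasi-likelihood test), where 13.3% of all tested genes were called lower. Against senescent shControl, 122 members were called higher after METTL3 knockdown (12.2% of all tested genes) and 97 after METTL14 knockdown (9.15%). With DESeq2 in place of edgeR, 58 members were called lower in senescent shControl, and 77 and 48 higher after METTL3 and METTL14 knockdown. These counts are a description of genes selected on the same values. With edgeR, none of the 3 calls was made for 34 members. All 3 calls were made for 55 members, and for 65 of all 12844 genes tested. The 3 contrasts share the 2 senescent shControl libraries, so the 3 calls on a gene are not independent. Of these 55 members, 45 were among the 74 members with 500 or more summed counts, whereas 2 were among the 70 members with under 200. The members nearest the limits were KANSL1L (0.698) and THEM4 (0.696) for the senescent ratio, EIF2D (1.403) and CAMK2D (1.408) for METTL3 knockdown, and C5orf51 (1.408) and ABCB1 (1.412) for METTL14 knockdown. Just outside lay SLC39A10 (0.7003) and ELOVL5 (0.703), C3orf67 (1.387) and TRUB1 (1.383), and CAPS2 (1.397) and STK39 (1.396).

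The contrasts of the knockdowns with control and with each other are outside the rule only in that it does not use them directly. Each knockdown mean had to reach 1.4 times the senescent shControl mean. A member with a small senescent fall therefore could not lie far below control, which limits calls below control. All genes tested have no such floor, so their shares called lower than control are not a like-for-like background. These contrasts, which share libraries, were tested, and the calls against control are a description of the selected genes. After METTL3 knockdown 35 members (17.8%) were called higher than control, where 20.1% of all genes tested were, and 16 (8.12%) lower, where again 20.1% were. After METTL14 knockdown 11 members (5.58%) were called higher and 18 (9.14%) lower, against 19.7 and 20.5% of all genes. In total 134 members (68%) were called against control after neither knockdown, 34 (17.3%) after METTL3 knockdown alone, 12 (6.09%) after METTL14 knockdown alone and 17 (8.63%) after both, where 43, 16.8, 16.8 and 23.4% of all genes tested were. A member that missed the threshold was not shown to equal its control level. Between the knockdowns, 34 members (17.3%) were called lower and 8 (4.06%) higher after METTL14 than after METTL3 knockdown, against 18.7 and 16.5% of all genes.

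The balance of higher and lower calls depends in part on scaling. With the library sum outside ribosomal RNA in place of TMM, the median of all genes moved from -0.05 to -0.26 on the log2 scale for METTL3 knockdown against control and from 0.01 to 0.22 for METTL14 against METTL3 knockdown. The members called after METTL3 knockdown were then 26 higher and 23 lower than control, in place of 35 and 16, and those between the knockdowns 19 higher and 26 lower after METTL14 knockdown, in place of 8 and 34. The shares of all genes called that are given above are with TMM, so the library-sum counts are not set against them. The member medians were 0.19 (METTL3 knockdown against control), -0.03 (METTL14 knockdown against control) and -0.20 (METTL14 against METTL3 knockdown) with TMM, and -0.02, -0.03 and 0.01 with the library sum.

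**Figure D2:**
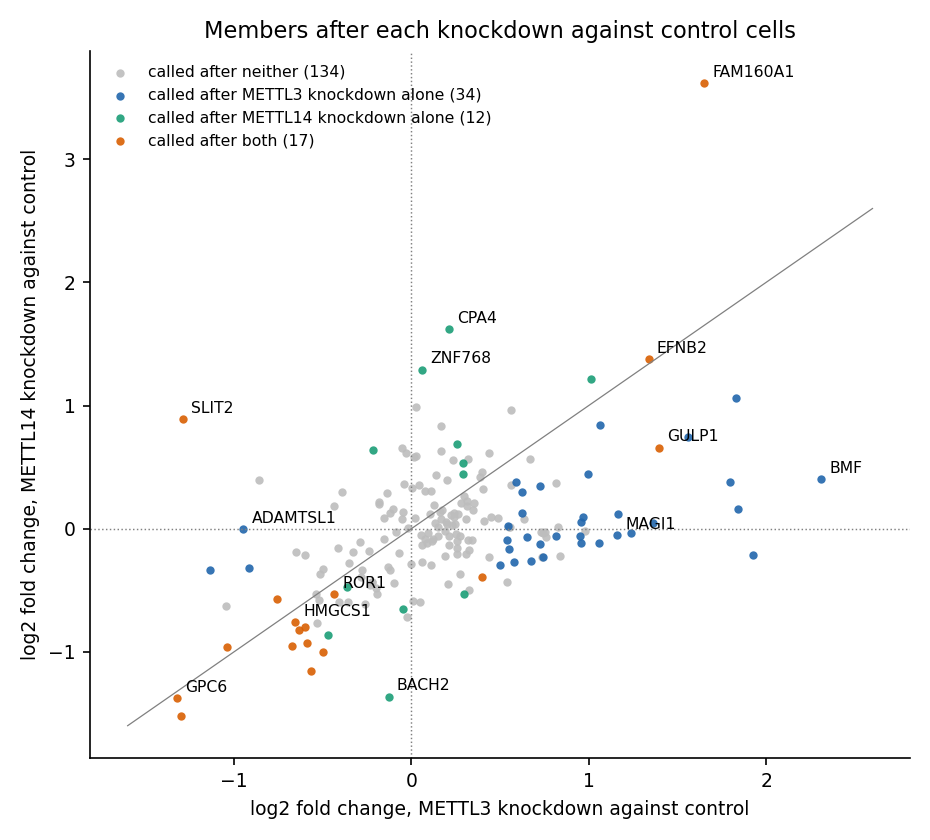
Log2 fold change of each of the 197 members against control after METTL3 knockdown (x axis) and METTL14 knockdown (y axis), colored by calls at adjusted p below 0.05, with a diagonal where both are equal. Both axes use the same control libraries. GPC6, ROR1 and HMGCS1 lie at the lower left, BMF and MAGI1 at the right, and SLIT2 is the 1 gene called after both that lies at the upper left.

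Cell surface proteins of the heparan sulfate and WNT systems included GPC6, ROR1 and FZD4. GPC6, a glypican that carries heparan sulfate on the cell surface, lies on chromosome 13 (93879061 to 95060273, hg19, plus strand), and with 1181 kb it is the longest member. It was at 1235 and 1298 CPM in control, 222 and 327 in senescent shControl, 407 and 469 after METTL3 knockdown, and 505 and 467 after METTL14 knockdown. Both knockdown pairs lay above senescent shControl and far below control, with log2 fold changes against control of -1.32 (SE 0.15, adjusted p = 6.7e-08) and -1.38 (SE 0.15, adjusted p = 3.9e-08). GPC6-AS1 and GPC6-AS2 lie wholly inside GPC6 on the other strand and are members too, so the 3 rows were not taken as separate evidence. GPC6-AS2 was at 33.8 and 39.4 CPM in control, 9.25 and 8.24 in senescent shControl, 9.33 and 16.1 after METTL3 knockdown, and 9.70 and 15.8 after METTL14 knockdown.

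ROR1, a receptor tyrosine kinase-like receptor for WNT5A, was at 273 and 228 CPM in control, 53.5 and 87.5 in senescent shControl, 165 and 156 after METTL3 knockdown, and 182 and 163 after METTL14 knockdown. Its knockdown libraries lay between the other groups without overlap. It was called below control after METTL3 knockdown (log2 fold change -0.43, SE 0.15, adjusted p = 0.025) and after METTL14 knockdown (-0.53, SE 0.15, adjusted p = 0.0072), and both calls were lost without control replicate 1 (adjusted p = 0.25 and 0.13) and with DESeq2 (adjusted p = 0.17 and 0.056), the second also without shMETTL14 replicate 2 (adjusted p = 0.072). FZD4, a Frizzled receptor for WNT and Norrin, was low throughout, at 9.12 and 10.5 CPM in control, 7.27 and 5.07 in senescent shControl, 18.1 and 15.1 after METTL3 knockdown, and 11.5 and 8.85 after METTL14 knockdown. FZD4 shares 74.3% of its span with PRSS23 on the other strand, which had 1499 summed counts against its 153, so its values cannot be told apart from those of PRSS23. Its call above control after METTL3 knockdown (log2 fold change 0.95, SE 0.36, adjusted p = 0.036) was lost without either control library, without shMETTL3 replicate 1, with upper quartile or library-sum scaling, in a fit of the 2 groups alone and with DESeq2 (adjusted p = 0.053 to 0.23). Of 23 tested genes of the WNT list, these 2 were members. In that list 10 were called lower and 5 higher in senescence, 8 higher and 4 lower after METTL3 knockdown, and 2 higher and 12 lower after METTL14 knockdown, where knockdowns are set against senescent shControl here and in the lists that follow. Of all genes tested, 13.3% were called lower and 13.3% higher in senescence, 12.2% higher and 11.2% lower after METTL3 knockdown, and 9.15% higher and 12% lower after METTL14 knockdown.

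In all, 12 members (6.09%, against 11.5% of all genes tested) were called below control after both knockdowns: GPC6, GPC6-AS1, GPC6-AS2, ROR1, CAMK2D, HMGCS1, KIF26B, CENPP, CERS6, FIGN, FRMPD4 and P3H2, a set named here after its values were seen. CENPP, with 785 summed counts, holds ECM2, OGN, ASPN and OMD (121, 100, 92 and 40) wholly inside it on the other strand. Its values cannot be told apart from theirs. CAMK2D, a subunit of calcium/calmodulin-dependent kinase II, was at 661 and 775 CPM in control, 228 and 294 in senescent shControl, 355 and 380 after METTL3 knockdown, and 490 and 475 after METTL14 knockdown. Its log2 fold changes against control were -0.76 (SE 0.14, adjusted p = 8.7e-05) and -0.57 (SE 0.14, adjusted p = 0.0017), the second of which missed the threshold without control replicate 2 (adjusted p = 0.069). HMGCS1, whose promoter is printed above, was at 109 and 107 CPM in control, 45.6 and 34.2 in senescent shControl, 60.4 and 58.6 after METTL3 knockdown, and 62.4 and 65.1 after METTL14 knockdown. Its knockdown libraries were all closer to senescent shControl than to control (log2 fold change against control -0.66, SE 0.17, adjusted p = 0.0026, and -0.76, SE 0.17, adjusted p = 0.00077), and the first call was lost with DESeq2 (adjusted p = 0.063). Of 24 tested genes of cholesterol and fatty acid synthesis HMGCS1 was the 1 member, while 10 were called lower and 0 higher in senescence, 7 higher and 1 lower after METTL3 knockdown, and 1 higher and 6 lower after METTL14 knockdown.

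**Figure D3:**
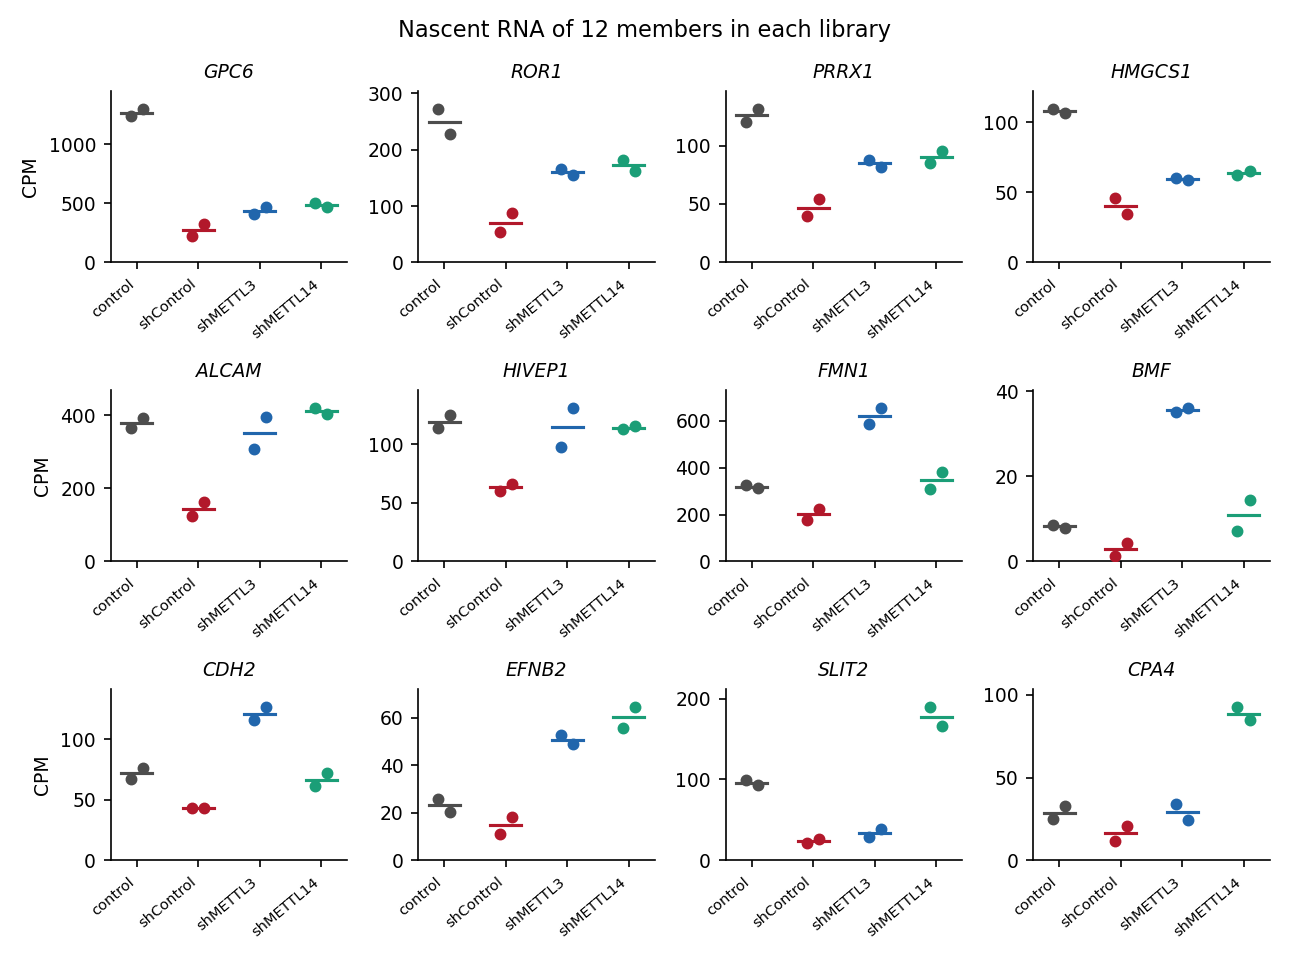
CPM of 12 members in each library (points), with the mean of the 2 libraries of a group (lines). All senescent groups carry an shRNA, which names them on the x axis. In GPC6, ROR1, PRRX1 and HMGCS1 both knockdown pairs sit between senescent shControl and control, in FMN1, BMF and CDH2 the shMETTL3 pair is above all others, and in SLIT2 and CPA4 the shMETTL14 pair is.

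Transcription factors of mesenchymal cells were also among the members. PRRX1, a homeodomain factor of mesenchyme and fibroblasts, was at 120 and 131 CPM in control, 39.6 and 53.9 in senescent shControl, 87.8 and 82.0 after METTL3 knockdown, and 85.5 and 95.5 after METTL14 knockdown. All 4 knockdown libraries lay between the other groups. Against control PRRX1 had a log2 fold change of -0.36 (SE 0.16, adjusted p = 0.068) after METTL3 knockdown and of -0.47 (SE 0.16, adjusted p = 0.019) after METTL14 knockdown, and the latter call was lost without control replicate 2, without shMETTL14 replicate 1 and with DESeq2 (adjusted p = 0.16, 0.20 and 0.16). HIVEP1, a zinc finger protein that binds enhancer elements, was at 114 and 125 CPM in control, 60.1 and 65.9 in senescent shControl, 97.7 and 131 after METTL3 knockdown, and 113 and 115 after METTL14 knockdown, so the knockdown libraries overlapped control (log2 fold changes 0.15 and -0.06, adjusted p = 0.47 and 0.79). TSHZ2, a teashirt family zinc finger factor, rested on 157 summed counts and ranged from 3.17 CPM in a senescent shControl library to 24.1 in an shMETTL3 library, whose partner was at 9.28. Of 49 tested genes of the list of mesenchymal factors, 3 were members, and 28 were called lower and 4 higher in senescence, 19 higher and 5 lower after METTL3 knockdown, and 6 higher and 16 lower after METTL14 knockdown.

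BACH2, a repressor of the BTB and leucine zipper family, separated the knockdowns. It was at 41.3 and 62.5 CPM in control, 7.27 and 12.05 in senescent shControl, 35.1 and 46.9 after METTL3 knockdown, and 18.2 and 22.1 after METTL14 knockdown. The shMETTL3 libraries overlapped control and the shMETTL14 libraries lay below them. METTL14 knockdown left BACH2 below its level after METTL3 knockdown, with a log2 fold change of -1.23 (SE 0.28, adjusted p = 0.00095), and lower than control after METTL14 knockdown (-1.36, SE 0.27, adjusted p = 0.00018) but not called after METTL3 knockdown (-0.13, SE 0.24, adjusted p = 0.70).

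Adhesion molecules took 3 shapes. ALCAM, an immunoglobulin family adhesion molecule, was at 365 and 392 CPM in control, 125 and 162 in senescent shControl, 307 and 396 after METTL3 knockdown, and 420 and 402 after METTL14 knockdown, with no call against control (log2 fold changes 0.10, SE 0.15, adjusted p = 0.61, and 0.12, SE 0.15, adjusted p = 0.54). CDH2, N-cadherin, was at 67.6 and 76.7 CPM in control, 42.9 and 43.7 in senescent shControl, 116 and 127 after METTL3 knockdown, and 61.2 and 72.1 after METTL14 knockdown. The shMETTL3 libraries were above all others, by 0.96 on the log2 scale against control (SE 0.16, adjusted p = 2.4e-05), and METTL14 knockdown gave less CDH2 than METTL3 knockdown (-1.07, SE 0.17, adjusted p = 1.3e-05). CNTN3, a contactin, was at 63.8 and 68.3 CPM in control, 37.0 and 33.0 in senescent shControl, 61.5 and 78.1 after METTL3 knockdown, and 101 and 90.4 after METTL14 knockdown. It was called above control after METTL14 knockdown (log2 fold change 0.53, SE 0.18, adjusted p = 0.017), a call that was lost without either control library, without shMETTL14 replicate 1 and with DESeq2 (adjusted p = 0.056 to 0.13). Of 22 tested cadherins and adhesion molecules, 14 were called lower and 2 higher in senescence, 10 higher and 3 lower after METTL3 knockdown, and 5 higher and 6 lower after METTL14 knockdown.

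The guidance genes SLIT2 and EFNB2 differed from each other. SLIT2, a secreted ligand of ROBO receptors on chromosome 4, was at 99.2 and 93.0 CPM in control, 21.1 and 26.0 in senescent shControl, 29.1 and 38.6 after METTL3 knockdown, and 190 and 166 after METTL14 knockdown. The shMETTL3 libraries stayed close to senescent shControl, whereas the shMETTL14 libraries exceeded all others. SLIT2 was the 1 member called below control after METTL3 knockdown (log2 fold change -1.29, SE 0.19, adjusted p = 2.6e-06) and above control after METTL14 knockdown (0.89, SE 0.16, adjusted p = 4.9e-05), a class of 0.508% of members and 0.685% of all genes tested, and it differed between the knockdowns by 2.18 (SE 0.18, adjusted p = 1.4e-09). EFNB2, the ligand ephrin-B2, was at 25.8 and 20.5 CPM in control, 11.2 and 18.4 in senescent shControl, 52.7 and 48.8 after METTL3 knockdown, and 55.8 and 64.5 after METTL14 knockdown. All 4 knockdown libraries were above control, with log2 fold changes of 1.34 (SE 0.23, adjusted p = 3.0e-05) and 1.38 (SE 0.23, adjusted p = 2.0e-05), and the knockdowns differed by 0.04 (SE 0.20, adjusted p = 0.89). Of 29 tested guidance genes these 2 were members, and 6 were called lower and 6 higher in senescence, 12 higher and 1 lower after METTL3 knockdown, and 4 higher and 9 lower after METTL14 knockdown.

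EFNB2 was 1 of 3 members (1.52%, against 10.2% of all genes tested) called above control after both knockdowns, the others being GULP1 and FAM160A1. GULP1, an adaptor for the uptake of dying cells, was at 153 and 175 CPM in control, 89.8 and 98.3 in senescent shControl, 313 and 434 after METTL3 knockdown, and 254 and 264 after METTL14 knockdown. Both knockdown pairs were above control (log2 fold change 1.396, SE 0.15, adjusted p = 3.4e-08, and 0.66, SE 0.16, adjusted p = 0.0013). FAM160A1, which takes part in the FTS, Hook and FHIP adaptor complex of endosomes, rested on 121 summed counts, at 1.61 and 2.63 CPM in control, 0.661 and 1.27 in senescent shControl, 3.84 and 7.81 after METTL3 knockdown, and 28.5 and 25.3 after METTL14 knockdown. Its call after METTL3 knockdown was lost without either control library, without shMETTL3 replicate 2, without either shMETTL14 library, with the library sum as scale and with DESeq2 (adjusted p = 0.053 to 0.34), and the log2 fold change after METTL14 knockdown was 3.62 (SE 0.49, adjusted p = 1.2e-06). TMEM117, named after its values were seen, was the 1 member called above control after METTL3 knockdown (log2 fold change 0.40, adjusted p = 0.027) and below it after METTL14 knockdown (-0.40, adjusted p = 0.035), a class of 1.07% of all genes tested.

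A further 31 members (15.7%, against 8.83% of all genes tested) were called above control after METTL3 knockdown alone, among them the scaffold and cytoskeleton genes MAGI1, FMN1, MCC and ARHGAP21. MAGI1, a scaffold of cell junctions, was at 463 and 367 CPM in control, 256 and 254 in senescent shControl, 795 and 813 after METTL3 knockdown, and 347 and 453 after METTL14 knockdown. Both shMETTL3 libraries exceeded all others (log2 fold change 1.16, SE 0.15, adjusted p = 3.5e-07), and METTL14 knockdown gave less MAGI1 than METTL3 knockdown (log2 fold change -1.21, SE 0.15, adjusted p = 4.4e-07). MAGI1-AS1 and MAGI1-IT1, wholly inside MAGI1, likewise had their lowest pair in senescent shControl and their highest after METTL3 knockdown, at 18.5 to 70.8 and 52.2 to 170 CPM, and share its reads at least in part.

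FMN1, a formin that nucleates actin filaments, was at 327 and 311 CPM in control, 176 and 225 in senescent shControl, 585 and 655 after METTL3 knockdown, and 310 and 382 after METTL14 knockdown (METTL3 knockdown against control 1.17, SE 0.15, adjusted p = 2.5e-07). MCC, a negative regulator of WNT signaling found mutated in colorectal cancer, was at 426 and 463 CPM in control, 237 and 266 in senescent shControl, 587 and 565 after METTL3 knockdown, and 358 and 379 after METTL14 knockdown (log2 fold change of METTL3 knockdown against control 0.58, SE 0.13, adjusted p = 0.00075). Both had their highest pair after METTL3 knockdown, and MCC after METTL14 knockdown lay between senescent shControl and control. The highest pair also came after METTL3 knockdown for ARHGAP21, a GTPase-activating protein, at 246 and 245 CPM in control, 166 and 168 in senescent shControl, 288 and 332 after METTL3 knockdown, and 235 and 264 after METTL14 knockdown. Its log2 fold change after METTL3 knockdown was 0.54 against control (SE 0.14, adjusted p = 0.0020).

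The other abundant members of this class were SPATS2L, TRHDE, OSBPL3 and PVT1. SPATS2L, a stress granule and nucleolar protein, had a mean of 213 CPM in senescent shControl, 491 ± 43.4 (SD, n = 2) after METTL3 knockdown and 343 ± 0.626 after METTL14 knockdown, against 361 ± 24.3 in control. TRHDE, a peptidase that degrades thyrotropin-releasing hormone, was at 295 and 337 CPM in control, 167 and 181 in senescent shControl, 423 and 453 after METTL3 knockdown, and 238 and 287 after METTL14 knockdown. OSBPL3, an oxysterol-binding protein family member, was at 300 and 316 CPM in control, 146 and 157 in senescent shControl, 388 and 388 after METTL3 knockdown, and 262 and 314 after METTL14 knockdown. In each of these 3 genes both shMETTL3 libraries exceeded all others. PVT1, the long noncoding RNA gene next to MYC and the member with the most counts, was at 677 and 665 CPM in control, 463 and 468 in senescent shControl, 936 and 854 after METTL3 knockdown, and 691 and 770 after METTL14 knockdown. It was called above control after METTL3 knockdown (log2 fold change 0.62, SE 0.13, adjusted p = 0.00039), and its difference between the knockdowns (-0.50, SE 0.13, adjusted p = 0.0043) missed the threshold with the library sum as scale and in a fit of the 2 groups alone (adjusted p = 0.073 and 0.055).

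The p53 list held TP53INP1 and SESN1, described here with BMF. BMF, a BH3-only activator of apoptosis of the BCL2 family, was at 8.58 and 7.88 CPM in control, 1.32 and 4.44 in senescent shControl, 35.1 and 36.1 after METTL3 knockdown, and 7.27 and 14.5 after METTL14 knockdown. The shMETTL3 pair was far above every other library (log2 fold change against control 2.31, SE 0.35, adjusted p = 5.3e-06), while the shMETTL14 pair spanned control. TP53INP1, a p53 target that promotes autophagy and cell death, was at 64.4 and 85.1 CPM in control, 46.9 and 48.2 in senescent shControl, 128 and 126 after METTL3 knockdown, and 66.1 and 93.6 after METTL14 knockdown. TP53INP1 lies wholly inside NDUFAF6, which is also a member, on the other strand, so the values of these 2 genes cannot be told apart. SESN1, a sestrin that restrains mTORC1, was at 41.8 and 56.2 CPM in control, 22.5 and 31.1 in senescent shControl, 32.9 and 63.0 after METTL3 knockdown, and 47.9 and 36.0 after METTL14 knockdown, and neither knockdown was called against control. Of 20 tested p53 targets, 3 were called lower and 4 higher in senescence, 9 higher and 1 lower after METTL3 knockdown, and 11 higher and 0 lower after METTL14 knockdown.

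Levels above control after METTL14 knockdown alone were called for 7 members (3.55%, against 8.84% of all genes tested). CPA4, a carboxypeptidase, was at 25.2 and 32.6 CPM in control, 11.9 and 20.9 in senescent shControl, 34.0 and 24.4 after METTL3 knockdown, and 92.7 and 84.7 after METTL14 knockdown. Its shMETTL14 pair stood above all others (log2 fold change against control 1.62, SE 0.22, adjusted p = 1.1e-06, and against METTL3 knockdown 1.41, SE 0.22, adjusted p = 1.3e-05). ZNF768, a zinc finger protein whose GC-rich promoter is printed above, was at 9.12 and 5.78 CPM in control, 3.96 and 5.07 in senescent shControl, 6.59 and 6.83 after METTL3 knockdown, and 17.0 and 19.6 after METTL14 knockdown. The call of ZNF768 against control (log2 fold change 1.29, SE 0.40, adjusted p = 0.011) was lost without control replicate 2, without shMETTL14 replicate 2 and with DESeq2 (adjusted p = 0.13, 0.095 and 0.13). ADAMTSL1, not among the 7 and a secreted protein related to the ADAMTS proteases, had the largest senescent fall among the members (log2 fold change -2.33), at 34.9 and 38.9 CPM in control, 5.94 and 7.61 in senescent shControl, 16.5 and 16.6 after METTL3 knockdown, and 44.2 and 29.1 after METTL14 knockdown. It was called below control after METTL3 knockdown (-0.95, SE 0.27, adjusted p = 0.0064), which was lost without control replicate 2 and with DESeq2 (adjusted p = 0.053 and 0.10). Its difference between the knockdowns (0.95, SE 0.28, adjusted p = 0.0090) was lost without shMETTL14 replicate 1 and with DESeq2 (adjusted p = 0.26 and 0.10).

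FGF5, TSC22D2, EPG5 and C1orf122 were not called against control after either knockdown. FGF5, a secreted fibroblast growth factor, was at 111 and 108 CPM in control, 72.0 and 73.5 in senescent shControl, 103 and 120 after METTL3 knockdown, and 128 and 110 after METTL14 knockdown. TSC22D2, of the TSC22 domain family, was at 221 and 209 CPM in control, 117 and 111 in senescent shControl, 174 and 218 after METTL3 knockdown, and 195 and 211 after METTL14 knockdown. EPG5, a tether for the fusion of autophagosomes with lysosomes, was at 314 and 301 CPM in control, 134 and 178 in senescent shControl, 260 and 220 after METTL3 knockdown, and 305 and 273 after METTL14 knockdown. Both shMETTL3 libraries of EPG5 lay below control, with 55.4% of its fall regained, and METTL14 knockdown gave 87.8%. For FGF5, TSC22D2 and EPG5 the log2 fold changes against control lay between -0.16 and 0.24, with SEs of 0.14 to 0.15 and no call (adjusted p = 0.22 to 0.70). C1orf122, the member with the highest RPKM in control, had 152 summed counts and shares 23.7% of its span with YRDC on the other strand. It was at 10.7 and 14.2 CPM in control, 6.61 and 6.97 in senescent shControl, 8.23 and 11.7 after METTL3 knockdown, and 13.9 in both shMETTL14 libraries, so 56.2% of its fall was regained after METTL3 knockdown.

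The cyclic nucleotide phosphodiesterases PDE10A and PDE3B had 196 and 134 summed counts. PDE10A was at 12.9 and 16.3 CPM in control, 5.94 and 7.61 in senescent shControl, 12.1 and 12.7 after METTL3 knockdown, and 21.2 and 23.4 after METTL14 knockdown. PDE3B was at 9.66 and 13.1 CPM in control, 5.94 and 5.07 in senescent shControl, 13.7 and 11.2 after METTL3 knockdown, and 6.06 and 10.1 after METTL14 knockdown. Neither was called in a contrast outside the rule, and at this depth only large differences could be detected, since members with under 200 summed counts had a median SE of 0.40 on the log2 scale for METTL3 knockdown against control, against 0.17 for members with 500 or more. Of 16 tested genes of cyclic nucleotide signaling, 4 were called lower and 7 higher in senescence, 5 higher and 5 lower after METTL3 knockdown, and 3 higher and 7 lower after METTL14 knockdown.

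When members are ordered by the smaller of their 2 knockdown ratios to senescent shControl, the first 5 had few counts. Beside BMF and FAM160A1, these were the noncoding genes LINC00595, MRPS30-DT and DANCR. LINC00595 had 101 summed counts, at 4.83 and 5.25 CPM in control, 1.32 and 0.634 in senescent shControl, 17.0 and 16.6 after METTL3 knockdown, and 3.03 and 5.69 after METTL14 knockdown. DANCR, a host gene of small nucleolar RNA, had 149 summed counts and holds SNORA26, listed with 52 counts on the same strand, so the reads of these 2 genes cannot be told apart. It was at 8.58 and 7.88 CPM in control, 3.30 and 4.44 in senescent shControl, 15.4 and 14.6 after METTL3 knockdown, and 18.2 and 11.4 after METTL14 knockdown. MRPS30-DT was at 6.97 and 3.68 CPM in control, 3.30 and 1.27 in senescent shControl, 18.7 and 14.6 after METTL3 knockdown, and 7.27 and 15.2 after METTL14 knockdown. LINC00595 and MRPS30-DT were called above control after METTL3 knockdown (log2 fold change 1.93, SE 0.44, adjusted p = 0.00088, and 1.83, SE 0.46, adjusted p = 0.0020), and the call of DANCR (1.06, SE 0.38, adjusted p = 0.028) was lost without either control library, without shMETTL3 replicate 2, with the library sum as scale and with DESeq2 (adjusted p = 0.058 to 0.19). CPM, the gene for carboxypeptidase M and not the unit, was at 8.05 and 12.6 in control (counts per 1000000), 5.28 and 6.34 in senescent shControl, 25.8 and 27.3 after METTL3 knockdown, and 17.0 and 17.7 after METTL14 knockdown, and was called above control after METTL3 knockdown (log2 fold change 1.56, SE 0.32, adjusted p = 0.00029).

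**Figure D4:**
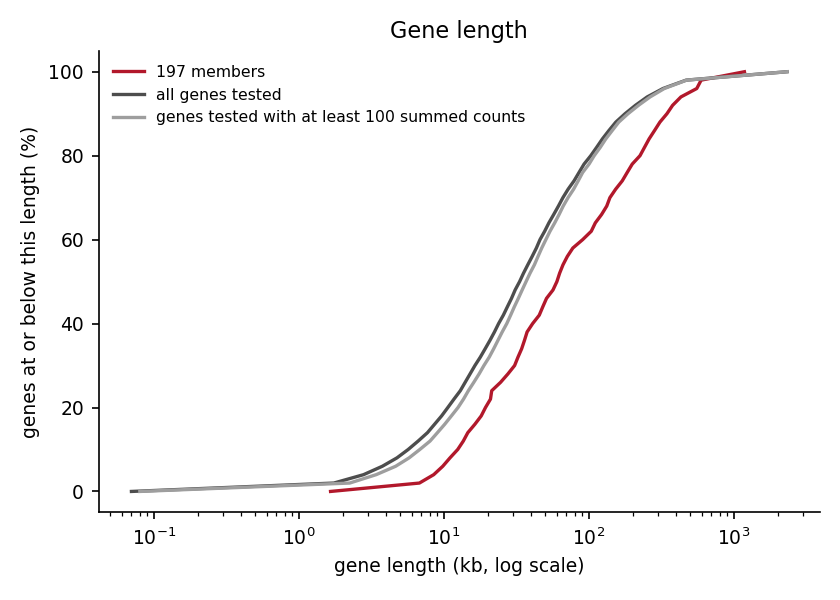
Share of genes at or below a given gene length (kb, log scale) for the 197 members, all 12844 genes tested, and the 11063 of them with at least 100 summed counts. The member curve lies to the right of both others over most of its range, with medians of 60.1, 33.3 and 36.9 kb.

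The rule did not use gene length, base composition or gene type. The members' median gene length was 60.1 kb (quartiles 24.3 and 179.5 kb), against 33.3 kb over all 12844 genes tested and 36.9 kb over the 11063 with at least 100 summed counts. Of the members, 77 (39.1%) were longer than 100 kb and 26 (13.2%) longer than 300 kb, where 20.6 and 4.59% of all tested genes were. The median GC content of the gene body was 41.6%, against 43.5% of all tested genes. Members had a lower median level per length in control, with 0.540 RPKM against 0.989. Of the 197 members, 161 were protein-coding (81.7%, against 89.6%), 31 noncoding RNA genes (15.7%, against 8.27%) and 5 pseudogenes. These features were not tested against the rest, and the minimum in the rule is a count, not a level per length.

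The members are not all separate transcription units. They fall in 185 loci, of which 10 hold 2 or 3 members with overlapping spans, 22 members in all, such as GPC6 with its antisense genes, MAGI1 with MAGI1-AS1 and MAGI1-IT1, LYRM4 with LYRM4-AS1, LURAP1L with LURAP1L-AS1 and ISPD with ISPD-AS1. In total 60 members share at least 5% of their span with another listed gene. Although counting was by strand, in 313 of 315 opposite-strand pairs in which 1 gene lies inside the other the outer gene had no fewer counts in any library, so reads of overlapping genes cannot be told apart here. Chromosomes 1 and 3 each held 19 members (9.65%), where 10.0 and 6.07% of tested genes lie, and chromosome 6 held 18 (9.14%, against 5.05%). Chromosome 13 held 11 (5.58%, against 2.00%), chromosome 4 held 15 (7.61%, against 3.91%) and chromosome 17 held 2 (1.02%, against 5.58%). Chromosome 7 held 15 (7.61%, against 4.91%) and chromosome 19 held 5 (2.54%, against 6.46%). These shares count genes and not loci: the GPC6 locus gives 3 of the 11 on chromosome 13, and the MAGI1 locus 3 of the 19 on chromosome 3. They were not tested.

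Of 23 gene lists chosen for this tissue and treatment, 7 held a member and 16 held none. Among the lists with none, 23 of 28 tested genes of mitosis were called lower and 0 higher in senescence, and against senescent shControl 12 and 13 were called lower after METTL3 and METTL14 knockdown and 0 higher after either. Of 21 tested collagen genes, 10 were called lower and 2 higher in senescence, 7 higher and 6 lower after METTL3 knockdown, and 0 higher and 15 lower after METTL14 knockdown. None of 25 tested factors of the secretory phenotype was a member, with 24 called higher and 1 lower in senescence, 0 higher and 21 lower after METTL3 knockdown, and 1 higher and 16 lower after METTL14 knockdown.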

How the data were processed

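The authors deposited 1 table of raw read counts per gene, made per the file header with HOMER over whole gene bodies of hg19 by strand, with transcripts condensed to genes. The submitters' processing notes also name STAR and deepTools 3.3. All 8 libraries (4 groups of 2) were used, and groups and replicate numbers came from the titles. The study gives 2 independent experiments for senescent against proliferating cells. The labels name no separate cultures, and p-values measure only the spread between these samples.

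CPM was computed over genes outside 21 ribosomal RNA rows, and RPKM from the listed gene length. The members, the gene lists and the tests were chosen with earlier results of these data known. Genes were tested in 1 fit over all libraries with edgeR 4.0.16 (R 4.3.3) by the quasi-likelihood test, with TMM scaling, filterByExpr at a minimum count of 10 and Benjamini-Hochberg adjustment over 12844 genes. SE is the absolute log2 fold change over the square root of F. DESeq2 1.42.0 was an alternative. The fit was tested on simulated counts, in which every changed gene had a higher mean count than many members have. That test does not cover members with few counts, and its outcome is not used here. The 1513930 to 2048475 counts outside ribosomal RNA, in libraries of 14897360 to 20306299, set the precision. The Drosophila spike-in of the study was not used here. Replicate libraries differed by more than counting noise (chi-square per degree of freedom 1.56 to 5.26), so none was counted as a duplicate.

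Members named in the text were the 12 with the highest mean CPM, the 6 with the highest RPKM in control, members of the gene lists, the 3 highest and 3 lowest called members (mean of at least 25 counts, no overlap between groups) in each of 3 contrasts outside the rule, the 5 with the largest smaller knockdown ratio, and those nearest each limit, and others are said to be named after their values were seen. Promoters and their motif counts came from RefSeq windows (GRCh38.p14), matched by transcript accession, symbol or synonym, and GC content from GRCh37, the assembly of hg19.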

Additional observations from a re-analysis of the deposited data

Results flagged for a closer look

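For 22 of the 48 members named by the rule, levels differed in the direct contrast of METTL14 against METTL3 knockdown (edgeR quasi-likelihood test, adjusted p below 0.05). The libraries of the 2 knockdowns also did not overlap for these 22, which was common among all genes. By CPM, 54 of the 197 members lay wholly higher and 51 wholly lower after METTL14 knockdown, against 43.7 and 24.6% of all genes tested. Some of the 48 were named for this contrast, so their count is not read as a share. Of all 197 members 34 (17.3%) were called lower and 8 (4.06%) higher, where 18.7 and 16.5% of all genes tested were. Levels after METTL14 knockdown were higher in 2 of 2 libraries for SLIT2 (log2 fold change 2.18, adjusted p = 1.4e-09), FAM160A1 (1.97), CPA4 (1.41), ZNF768 (1.23) and ADAMTSL1 (0.95), with adjusted p of at most 0.019 for these 5.

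They were lower for LINC00595 (log2 fold change -2.14), BMF (-1.91), MAGI1-AS1 (-1.32), MAGI1-IT1 (-1.27), BACH2 (-1.23), MAGI1 (-1.21), CDH2 (-1.07), FMN1 (-1.04), TRHDE (-0.94), TP53INP1 (-0.88), MCC (-0.85), CPM (the gene, -0.82), GULP1 (-0.74), SPATS2L (-0.72), OSBPL3 (-0.63), ARHGAP21 (-0.52) and PVT1 (-0.50), with adjusted p of at most 0.037. MAGI1-AS1 and MAGI1-IT1 lie inside MAGI1 and are not independent of it or of each other. The calls of PVT1, ARHGAP21, CPM, ZNF768 and ADAMTSL1 were lost in at least 1 alternative.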

How the results depend on the processing

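Among members called against control, higher outnumbered lower after METTL3 knockdown in every alternative run. Lower outnumbered higher after METTL14 knockdown in every one but the fold condition (5 higher, 4 lower), and for METTL14 against METTL3 knockdown in every one. All these runs count calls among the same selected members, and the rule limits their calls below control. The balances against control are therefore a description. The values below moved by over 1.5 times (for the shares, by over 1 SD between libraries). Shares of all genes called are given for the main fit alone, so the counts of alternative runs are not set against them. With DESeq2, 4 members were lower after METTL3 knockdown than control (16 with edgeR), 6 higher (11) and 11 lower (18) after METTL14 knockdown, and 4 higher after METTL14 than after METTL3 knockdown (8). At adjusted p below 0.01, 10 were lower after METTL3 knockdown and 6 higher after METTL14 knockdown than control, and 5 were higher after METTL14 than after METTL3 knockdown. Adding the condition of an absolute log2 fold change of 1 or more left 15 higher and 5 lower after METTL3 knockdown, 5 higher and 4 lower after METTL14 knockdown, and 5 higher and 12 lower for METTL14 against METTL3 knockdown. Restriction to the 137 members sharing under 5% of their span left 11 lower after METTL14 knockdown. METTL14 against METTL3 knockdown gave 19 higher members with the library sum outside ribosomal RNA and 5 with at least 10 counts in every library.

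Leaving out 1 library at a time gave 25 to 48 members higher (35 with all libraries) and 9 to 16 lower after METTL3 knockdown, 7 to 15 higher and 13 to 20 lower after METTL14 knockdown, and 4 to 11 higher and 23 to 43 lower between the knockdowns. The lowest 9 and 7 came without control replicate 1 and the lowest 4 without shMETTL14 replicate 1. The rule found 184 to 406 genes, 310 without senescent shControl replicate 1 (144 of the 197 among them) and 406 without replicate 2 (170 among them). It found 114 genes with a knockdown ratio of 1.6, 127 with 200 summed counts and 173 with TMM-scaled CPM, of which 154 are among the 197. The median share of the fall regained was 82.3 to 101.1% after METTL3 knockdown and 92.8 to 100.1% after METTL14 knockdown over these omissions, and 132.3% after METTL3 knockdown with TMM-scaled CPM. The cause of these changes was not tested, beyond fewer samples or genes where the alternative itself removes them.

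With the replicate number as a block (replicate block), the counts were 35 higher and 16 lower after METTL3 knockdown, 11 and 18 after METTL14 knockdown, and 8 and 34 between the knockdowns, as without it. The labels do not say that a number marks a shared batch, and deviations of same-numbered libraries correlated by -0.04 to 0.10 across genes, so libraries were not paired. Of 65 calls on single named genes, 48 passed the threshold in every alternative. Depth limits the members with under 200 summed counts most.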

Other observations

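Further members with known roles, named after their values were seen, had the same range of shapes. MECOM, a zinc finger factor also known as EVI1, was at 68.7 and 72.5 CPM in control, 28.4 and 43.1 in senescent shControl, 112 and 124 after METTL3 knockdown, and 64.9 and 70.2 after METTL14 knockdown, so its shMETTL3 libraries exceeded all others. FLI1, an ETS family factor, was at 35.4 and 48.3 CPM in control, 19.8 and 15.2 in senescent shControl, 50.5 and 46.4 after METTL3 knockdown, and 47.9 and 39.2 after METTL14 knockdown, which overlapped control.

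NALCN, a sodium leak channel, stayed below control, at 45.6 and 48.3 CPM in control, 11.9 and 13.3 in senescent shControl, 21.95 and 36.1 after METTL3 knockdown, and 21.8 and 29.7 after METTL14 knockdown. INPP4B, a phosphoinositide phosphatase, was at 127 and 144 CPM in control, 57.5 and 51.4 in senescent shControl, 140 and 148 after METTL3 knockdown, and 186 and 183 after METTL14 knockdown. SLC7A11, the cystine and glutamate antiporter, was at 183 and 242 CPM in control, 102 and 129 in senescent shControl, 187 and 258 after METTL3 knockdown, and 148 and 181 after METTL14 knockdown. Of these 3, only INPP4B had both shMETTL14 libraries above control.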
